A study of Mus musculus with 20 samples.

Results

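Pax1, Pax9, Nkx3-2 and Sox9 are 4 transcription factor genes used to mark sclerotome, the ventral part of the somite that forms vertebrae and ribs. They were chosen by gene name, 4 of the 54446 gene IDs in the tables, and were followed through 15 bulk RNA-seq libraries. Pax1, Pax9 and Sox9 averaged at least 1 TPM over the libraries (15.8, 1.18 and 12.5 TPM) and were tested. Pax9 passed this filter through the Gastruloid libraries, since its mean over the other groups was 0.575 TPM, and it fell under the filter without Gastruloid replicate 1 or 2. A fit without the filter is therefore given too. Nkx3-2 averaged 0.645 TPM, fell under that filter, and is given by its values and by a fit without the filter. TPM is a transcript abundance corrected for transcript length, with the same sum in every library, so levels of different genes can be set side by side.

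In the embryo, Sonic hedgehog secreted by the notochord and floor plate acts on the ventral somite, whose cells lose their epithelial form and switch on Pax1 and Pax9. These related paired-box factors act in partly overlapping ways and promote Nkx3-2 (also called Bapx1), a homeobox factor that favours cartilage formation. Sox9 is the master regulator of chondrocytes and, with Sox5 and Sox6, drives cartilage matrix genes such as Col2a1. It is not limited to sclerotome: neural crest, neural progenitors and several epithelia also use it, and Pax1 and Pax9 are also active in pharyngeal pouch endoderm.

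The samples were gastruloids, aggregates of mouse embryonic stem cells that elongate and form an axis with neural tissue and mesoderm. All 5 groups came from the F1G4 background with 2 fluorescent reporters (T::H2B-mCherry and Sox2::H2B-Venus), and all received 3 µM CHIR99021, an activator of WNT signalling, after 48 h of aggregation. The 96h group (10 pooled structures per library) preceded the other groups, which were collected at 120 h with 6 pooled structures per library. Gastruloid structures had no Matrigel, TLSMG structures were embedded in Matrigel (a basement membrane gel), TLSMGC structures had Matrigel and further CHIR, and TLSMGCL structures had Matrigel, CHIR and LDN, an inhibitor of BMP receptors. Each group held 3 libraries, described as biological replicates in the labels, and the structures were picked for an asymmetric pole, so they stand for picked structures of 1 reporter line. Single-cell and NanoString measurements of the series were not analysed here. In pooled structures, fewer cells of a type and less RNA per cell cannot be told apart. Depth differed by 2.19 times between the deepest and the shallowest library. It was taken as the median of coverage per FPKM (3.12 to 6.84) over genes with 1 annotated transcript, matching coordinates and both values over 1. Per library, 13688 to 14494 genes reached 1 TPM.

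Pax1 (ENSMUSG00000037034.16, chr2:147361925-147393295 of GRCm38, plus strand) and Pax9 (ENSMUSG00000001497.18, chr12:56691767-56712822, plus strand) are protein-coding genes, each with 3 annotated transcripts. They are close relatives, so the part of the coding sequence in which they are most alike is shown to let the separation of their reads be judged. Both windows are 300 bases of the coding sequence of 1 transcript each, in the paired box, the DNA-binding region that gives the family its name. They are written in the direction of the transcript, and capitals mark the 53 bases that differ between the genes.
Pax1: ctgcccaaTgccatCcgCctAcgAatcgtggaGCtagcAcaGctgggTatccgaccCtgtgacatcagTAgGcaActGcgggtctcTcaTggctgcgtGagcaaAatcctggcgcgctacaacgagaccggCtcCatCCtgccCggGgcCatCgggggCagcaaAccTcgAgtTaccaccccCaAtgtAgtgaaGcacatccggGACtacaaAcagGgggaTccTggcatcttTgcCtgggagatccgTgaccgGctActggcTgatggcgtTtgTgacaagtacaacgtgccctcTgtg
Pax9: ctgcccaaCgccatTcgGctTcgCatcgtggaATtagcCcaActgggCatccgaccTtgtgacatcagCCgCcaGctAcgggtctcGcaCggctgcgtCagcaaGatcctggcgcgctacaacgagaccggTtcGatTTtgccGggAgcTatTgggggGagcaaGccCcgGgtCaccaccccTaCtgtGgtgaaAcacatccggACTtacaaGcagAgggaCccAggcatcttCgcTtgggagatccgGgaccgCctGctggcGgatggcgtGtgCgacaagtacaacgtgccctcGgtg
The windows were identical at 247 of 300 bases, or 82.3%. The longest run of identical bases between any transcripts of these genes was 26 bases, and no stretch of 75 bases, the read length, was shared. A read of full length therefore had at least 1 base by which the annotated transcripts of the genes differ.

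Pax1 had the widest range of the 4 genes. The 96h libraries had 0.0273, 0.0814 and 0 TPM, the Gastruloid libraries 55.2, 61.0 and 69.0 TPM, and the TLSMG libraries 12.6, 18.7 and 19.6 TPM. It was then at 0.244, 0.349 and 0.205 TPM in TLSMGC and at 0.261, 0.143 and 0.109 TPM in TLSMGCL. Pax1 was therefore high in both 120 h groups without further CHIR and low in every library of the other groups, and the Gastruloid and TLSMG libraries did not overlap. The mean was 61.7 ± 6.92 TPM (SD, n = 3) in Gastruloid and 17 ± 3.81 TPM (SD, n = 3) in TLSMG, which was 27.5% of the Gastruloid level. With further CHIR the mean was 0.266 ± 0.0744 TPM (SD, n = 3), which was 63.8-fold lower than in TLSMG, and with LDN as well it was 0.171 ± 0.0797 TPM (SD, n = 3).

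On the log2(TPM + 1) scale, Pax1 was 5.91 higher (SE 0.14) in Gastruloid than at 96h, with a limma adjusted p of 8.66e-12. By the size of its difference it ranked 4 of 14290 genes there. TLSMG was 4.09 higher than 96h (adjusted p = 1.66e-10, limma). Between the 120 h groups, Pax1 fell by 1.82 from Gastruloid to TLSMG (adjusted p = 8.59e-06, limma) and by 3.81 from TLSMG to TLSMGC (adjusted p = 6.18e-10, limma). The last difference ranked 16 of 14290. TLSMGC and 96h differed by 0.29 (adjusted p = 0.128, limma), a value that passed the threshold with a smaller pseudocount (0.0259 with 0.5 TPM) and also without TLSMG replicate 1 (0.0439). The means compared there are 0.266 and 0.0362 TPM.

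**Figure D1:**
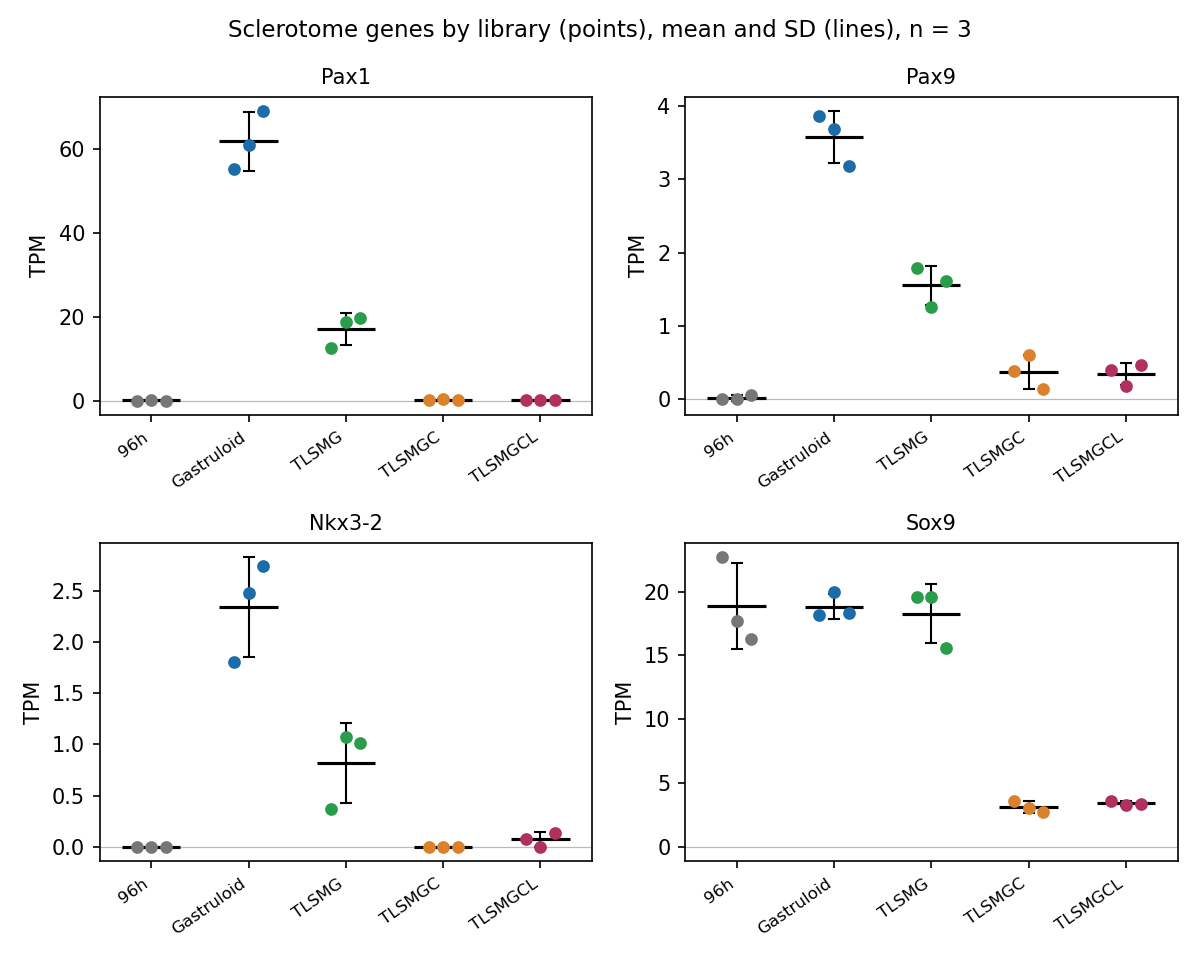
TPM of Pax1, Pax9, Nkx3-2 and Sox9 in each library (points) of the 5 groups on the x axis, with the group mean (long line) and SD (error bar), n = 3, and a separate linear y axis per gene. Pax1, Pax9 and Nkx3-2 are highest in Gastruloid and second in TLSMG, whereas Sox9 overlaps between 96h and those groups and is low in TLSMGC and TLSMGCL.

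Pax9 had the same order of group means as Pax1, at a lower level than Pax1 in Gastruloid and TLSMG. Its values were 0, 0 and 0.0666 TPM at 96h, 3.86, 3.69 and 3.18 TPM in Gastruloid and 1.79, 1.26 and 1.61 TPM in TLSMG. They were 0.385, 0.602 and 0.144 TPM in TLSMGC and 0.398, 0.178 and 0.467 TPM in TLSMGCL. All Gastruloid libraries lay above all TLSMG libraries, and these lay above all libraries with further CHIR, while the TLSMGC and TLSMGCL libraries overlapped. The mean fell from 3.58 ± 0.356 TPM in Gastruloid to 1.55 ± 0.269 TPM in TLSMG (SD, n = 3 each), a log2 difference of -0.84 (SE 0.14, adjusted p = 0.000733, limma). From TLSMG to TLSMGC it fell 4.12-fold, to 0.377 ± 0.229 TPM (SD, n = 3), a log2 difference of -0.90 (adjusted p = 0.000259, limma). Without the filter the same differences had adjusted p of 0.00129 and 0.00041 (limma).

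Pax9 passed the threshold against 96h in all 4 groups at 120 h. The differences were 2.16 in Gastruloid (adjusted p = 5.79e-08) and 1.32 in TLSMG (adjusted p = 6.63e-06), by limma. They were only 0.42 in TLSMGC (adjusted p = 0.0319) and 0.39 in TLSMGCL (adjusted p = 0.0422), also by limma. These small differences did not hold: the TLSMGC call was lost without any one of the 96h libraries or without TLSMGC replicate 1 or 2 (adjusted p from 0.0515 to 0.135). The TLSMGCL call was lost without any one of the 96h libraries, TLSMG replicate 3, TLSMGC replicate 1, or TLSMGCL replicate 1 or 3 (adjusted p from 0.0523 to 0.138). Without the filter the TLSMGCL call was lost as well (adjusted p = 0.0522, limma), and the other 3 were kept. The low levels of Pax1 and Pax9 in the groups with further CHIR are thus near those at 96h, and whether they lie above them depends on the settings.

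The balance between the paired-box genes was taken as the ratio of their TPM in each 120 h library. Pax1 stood at 14.3, 16.5 and 21.7 times the TPM of Pax9 in the Gastruloid libraries and at 7.04, 14.9 and 12.2 times in the TLSMG libraries. The ranges overlapped, and the difference of the log2 ratios, -0.67, had a two-sided exact permutation p of 0.2, where 3 against 3 libraries allow no p under 0.1. It was -0.90 to -0.36 without 1 library (p up to 0.4), and -0.36 without TLSMG replicate 1. In TLSMGC the ratios were 0.633, 0.58 and 1.42, and in TLSMGCL they were 0.655, 0.803 and 0.234. Pax1 was thus the more abundant of the pair by far in Gastruloid and TLSMG. In 5 of the 6 libraries with further CHIR it was the less abundant, but both genes were near 0 there. Pax1 was at most 0.349 TPM and Pax9 at most 0.602 TPM in those libraries, and a change of the ratio with CHIR was not tested. No ratio was taken at 96h, where either gene was listed at 0 in some libraries.

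Windows of 250 bases before the start of Pax1 and Pax9 were searched for 9 short motifs, because both genes moved together over the groups. The sequences are those of RefSeq on GRCm38.p6, where 3 of the 4 genes had an entry. The window of Pax1 (chr2:147364744-147364993, plus strand) and that of Pax9 (chr12:56695221-56695470, plus strand) both lie in introns of longer annotated transcripts. Capitals mark motif matches on either strand.
Pax1: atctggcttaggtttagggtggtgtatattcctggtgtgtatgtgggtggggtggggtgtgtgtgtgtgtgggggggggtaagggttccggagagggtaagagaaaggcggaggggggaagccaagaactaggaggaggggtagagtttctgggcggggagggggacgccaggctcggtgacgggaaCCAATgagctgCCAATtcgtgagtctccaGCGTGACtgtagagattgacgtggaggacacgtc
Pax9: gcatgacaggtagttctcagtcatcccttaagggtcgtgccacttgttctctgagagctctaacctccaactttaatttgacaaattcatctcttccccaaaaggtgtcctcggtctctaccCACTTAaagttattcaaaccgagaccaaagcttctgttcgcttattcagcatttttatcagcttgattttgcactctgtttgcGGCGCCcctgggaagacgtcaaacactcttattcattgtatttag
The Pax1 window was 58.8% GC and the Pax9 window 43.6%, against a median of 52.4% over 32851 windows. Pax1 held 2 matches of the CCAAT box, which 33.8% of all windows hold, and 1 match of the paired-box core GTCACGC on the other strand, which 1.78% hold. Pax9 held 1 match each of the SMAD motif GGCGCC (9.59% of windows) and of the NK homeobox motif TAAGTG on the other strand (7.92%). Neither window held the GLI motif GACCACCCA, which 0.225% of all windows hold, or the TCF/LEF motif CTTTGA, which 13.8% hold. The SOX motif ACAAAG (16.5% of windows), the T-box motif TCACACC (3.33%) and the core promoter motif TATAAA (12.4%) were not in them either. No motif was found in both windows.

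Rows that overlap Pax1 or Pax9 on the opposite strand had a similar order of levels. AI646519, an antisense transcript that shares 869 bp with the 5′ end of the Pax1 span, was listed at 0 in all 96h libraries. It was at 7.15, 9.34 and 6.70 TPM in Gastruloid and at 1.75, 1.54 and 4.10 TPM in TLSMG, and at most 0.259 TPM in the groups with further CHIR. Like Pax1, it was lower in every TLSMG library than in every Gastruloid library (log2 difference -1.39, adjusted p = 0.000449, limma), and it fell again in TLSMGC (by 1.68, adjusted p = 4.4e-05, limma). AI646519 passed the filter of 1 TPM through the Gastruloid libraries, with group means of 0, 7.73, 2.46, 0.0301 and 0.0863 TPM from 96h to TLSMGCL. No fit without the filter is given for it. Gm15524, antisense to Pax9 over 1198 bp, was at 1.15, 0.859 and 0.677 TPM in Gastruloid, at 0, 0.108 and 0.285 TPM in TLSMG and at 0 elsewhere. Slc25a21, a mitochondrial carrier gene that shares 189 bp with the end of Pax9, was at 0.835, 0.687 and 0.368 TPM in Gastruloid and at 0.210, 0.302 and 0.313 TPM in TLSMG. All 3 rows were low or at 0 where the Pax gene was low. The libraries were stranded per the labels, but whether strand was used in quantification is not given in the sources used here, so reads from inside these overlaps may belong to either partner.

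**Figure D2:**
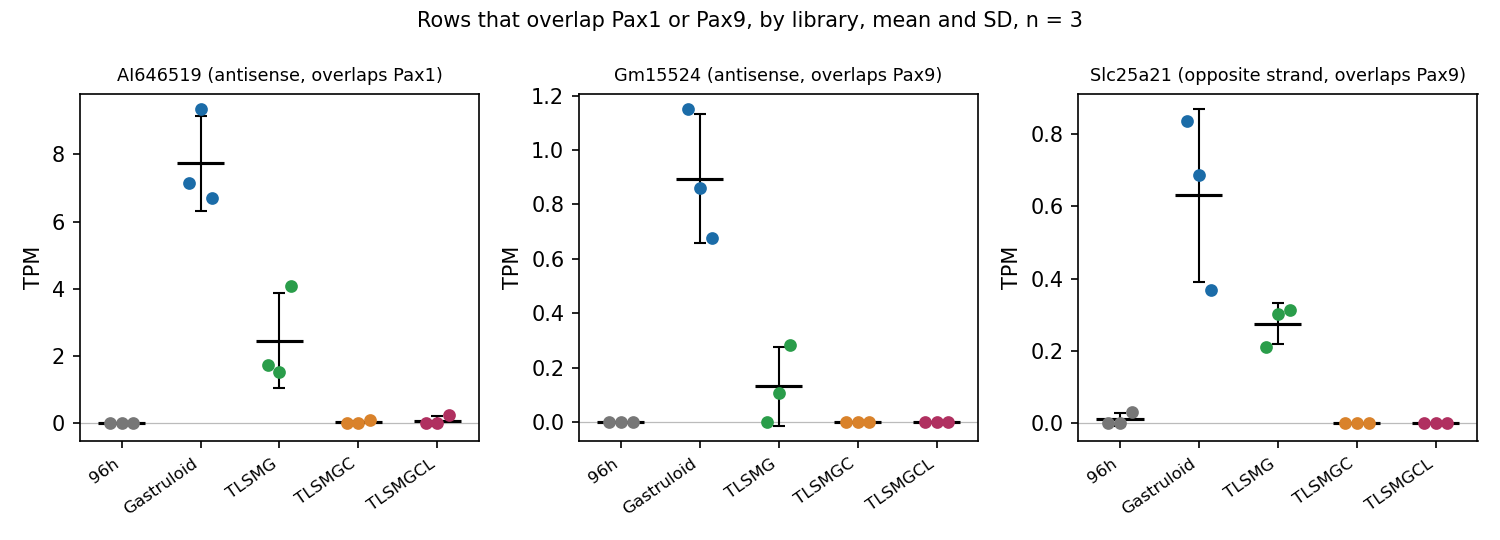
TPM of AI646519, Gm15524 and Slc25a21 in each library (points) of the 5 groups on the x axis, with the mean (long line) and SD (error bar), n = 3, each on its own linear y axis. Each row is highest in Gastruloid, lower in TLSMG and at or near 0 TPM in the other groups.

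The nearest other rows with a mean of at least 1 TPM on each side of Pax1 did not follow this order over all 5 groups. They were Xrn2, 283925 bp before Pax1, and Foxa2, 649582 bp after it. Any row under 1 TPM between them was passed over. Xrn2, an exonuclease gene before Pax1, had 95.9 ± 9.12 TPM in Gastruloid and 130.0 ± 3.02 TPM in TLSMG (SD, n = 3 each), higher by 0.44 in TLSMG (adjusted p = 0.00118, limma), the opposite direction to Pax1, also with FPKM and with median-of-ratios scaling. Foxa2, a notochord, floor plate and endoderm factor on the other side of Pax1, was at 4.59 ± 0.332 and 4.14 ± 1.51 TPM (SD, n = 3 each) in the same groups (adjusted p = 0.697, limma). It had 2.73 ± 1.43 TPM in TLSMGC and 2.53 ± 0.258 TPM in TLSMGCL (SD, n = 3 each), so its 120 h means had the order of Pax1. Its highest mean was at 96h, 5.31 ± 2.66 TPM (SD, n = 3), and TLSMGC against TLSMG did not pass (-0.48, adjusted p = 0.225, limma).

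Nkx3-2 (ENSMUSG00000049691.8, chr5:41761483-41764501, minus strand, 1 transcript of 2 exons) was listed at 0 in all 3 libraries of 96h and of TLSMGC. Its values were 1.80, 2.48 and 2.74 TPM in Gastruloid and 0.368, 1.07 and 1.01 TPM in TLSMG. In TLSMGCL they were 0.0769, 0 and 0.140 TPM. The gene was thus found in every library of the groups in which Pax1 was high, with no overlap between Gastruloid and TLSMG, and was at or near 0 elsewhere. The mean was 2.34 ± 0.485 TPM in Gastruloid and 0.817 ± 0.389 TPM in TLSMG (SD, n = 3 each), a 2.86-fold difference.

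In the fit without the filter, which tested 29971 genes and called 22.1% of them between Gastruloid and 96h, Nkx3-2 was 1.73 higher in Gastruloid than at 96h (adjusted p = 3.68e-06, limma). It was 0.84 higher in TLSMG than at 96h (adjusted p = 0.000902, limma) and fell by 0.89 from Gastruloid to TLSMG (adjusted p = 0.00154, limma). TLSMGC was 0.84 lower than TLSMG (adjusted p = 0.00119, limma). A listed 0 can be a failed estimate, and the log2 differences of so low a gene depend on the pseudocount. The exact permutation test of 3 against 3 libraries gave its smallest possible two-sided p, 0.1, for each of these pairs.

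Sox9 (ENSMUSG00000000567.5, chr11:112782224-112787760, plus strand, 3 exons) had another pattern. It was at 22.7, 17.7 and 16.3 TPM at 96h, at 18.2, 20.0 and 18.3 TPM in Gastruloid and at 19.6, 19.6 and 15.6 TPM in TLSMG. It was at 3.63, 3.04 and 2.73 TPM in TLSMGC and at 3.59, 3.26 and 3.37 TPM in TLSMGCL. The libraries of the first 3 groups overlapped one another and all lay above those with further CHIR, which overlapped each other. Sox9 was already present at 96h, when Pax1 was at or under 0.0814 TPM, and its libraries overlapped between TLSMG and Gastruloid, where Pax1 differed 3.64-fold.

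The Sox9 mean was 18.3 ± 2.34 TPM in TLSMG and 3.13 ± 0.461 TPM in TLSMGC (SD, n = 3 each), a 5.82-fold drop and a log2 difference of -2.22 (SE 0.13, adjusted p = 3.68e-08, limma). Against 96h, TLSMGC was lower by 2.26 (log2 difference -2.26, adjusted p = 1.69e-08, limma). The difference of Gastruloid from 96h was 0.01 (SE 0.13, adjusted p = 0.965, limma), that of TLSMG from 96h was -0.04 (SE 0.13, adjusted p = 0.819), and that of TLSMG from Gastruloid was -0.05 (SE 0.13, adjusted p = 0.794). LDN in addition to CHIR left a difference of 0.10 (SE 0.13, adjusted p = 0.811, limma).

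Set in the order of their levels, Sox9 was the most abundant member at 96h, TLSMGC and TLSMGCL, and Pax1 was the most abundant in Gastruloid. In TLSMG the Pax1 and Sox9 means, 17 and 18.3 TPM, differed by less than the SD of either. In Gastruloid, Pax9 at 3.58 TPM and Nkx3-2 at 2.34 TPM followed, with the lowest Pax9 library (3.18 TPM) above the highest Nkx3-2 library (2.74 TPM). Across groups, Pax1, Pax9 and Nkx3-2 each had the order Gastruloid, then TLSMG, and for each of them the libraries of TLSMGC and TLSMGCL overlapped or were at 0. For Sox9 the 96h, Gastruloid and TLSMG groups did not differ beyond their spread. The label sclerotome therefore covers 3 genes that were highest in Gastruloid and second in TLSMG, and Sox9, which was not. Below these groups the order was not shared: Nkx3-2 was at 0 TPM in TLSMGC and 0.0723 TPM in TLSMGCL, while Pax1 and Pax9 had the lower mean in TLSMGCL. The share of all genes with the same order, or with no overlap between Gastruloid and TLSMG, was not counted.

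The share of all tested genes that passed gives the scale for these calls. Between Gastruloid and 96h, which asks what a further day of culture brings, Pax1 and Pax9 were higher, where 20.8% of the 14290 tested genes were higher and 20.5% lower. Between TLSMG and 96h, Pax1 and Pax9 were higher, against 33.5% of all tested genes (12.5% were lower). Between TLSMG and Gastruloid, which differ in the Matrigel, Pax1 and Pax9 were lower, against 7.87% of all tested genes (31.5% were higher). The drop of Pax1 and Pax9 ran against the majority there, since 4497 genes were higher and 1125 lower, although with median-of-ratios scaling the split was 2745 and 2584.

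For added CHIR (TLSMGC against TLSMG), Pax1, Pax9 and Sox9 were lower, against 30.5% of all tested genes (10.4% were higher). That comparison called 1490 genes higher and 4352 lower, and 2744 and 2564 with median-of-ratios scaling. TLSMGCL against TLSMG gave the same direction for these genes, against 35.6% of genes lower and 9.31% higher (1330 higher and 5086 lower, or 2840 and 2740 rescaled). For LDN on top of CHIR (TLSMGCL against TLSMGC), 0 of 3 passed by limma, against 1.18% of all tested genes (58 higher and 111 lower, or 104 and 101 rescaled). At so low a share, 0 of 3 does not set the members apart from all genes. At most 0.11 separated the groups on the log2 scale. The unadjusted p-values by limma were 0.446 for Pax1, 0.87 for Pax9 and 0.458 for Sox9. The share of all genes at an unadjusted threshold was not counted. Against 96h, Pax9 was higher and Sox9 lower in TLSMGC, where 20.6% of genes were higher and 20.1% lower, and likewise in TLSMGCL, where 17.4% were higher and 22.1% lower. In TLSMG against 96h the split of all genes was 4792 higher and 1785 lower, or 3138 and 3345 rescaled. The median of all tested genes stood at 0.14 in TLSMG against 96h, at 0.13 in TLSMG against Gastruloid, at -0.16 in TLSMGC against TLSMG and at -0.18 in TLSMGCL against TLSMG.

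**Figure D3:**
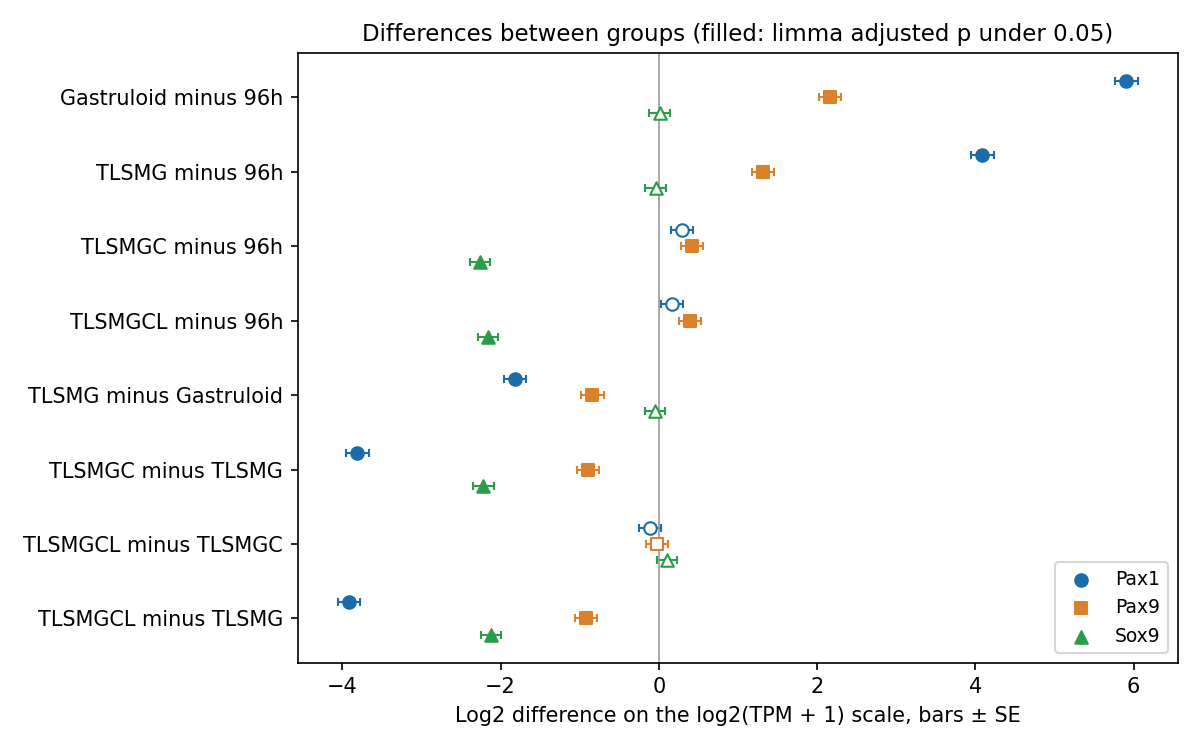
Log2 difference on the log2(TPM + 1) scale (x axis, bars ± SE) of Pax1, Pax9 and Sox9 in 8 comparisons (y axis); filled symbols have a limma adjusted p under 0.05. Pax1 and Pax9 are positive in Gastruloid and TLSMG against 96h and negative in TLSMG against Gastruloid, where the Sox9 difference is -0.05, and all 3 are negative in TLSMGC against TLSMG.

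Other regulators of sclerotome and somite were measured as a list of 12 genes, of which 11 were tested. Between TLSMG and Gastruloid, 1 rose and 1 fell, where 31.5% of all tested genes were higher and 7.87% lower. The list median was 0.04 against 0.13 over all tested genes, and 1 rose and 2 fell after median-of-ratios scaling. Tcf15 (paraxis), which keeps somites epithelial, went in the direction of Pax1 in this comparison: it had 260 ± 29.5 TPM in Gastruloid and 154 ± 40.6 TPM in TLSMG (SD, n = 3 each), a log2 difference of -0.77 (adjusted p = 0.00499, limma). Meox2, a somite homeobox gene, rose by 0.93 (adjusted p = 0.0016, limma). Somite genes were abundant, with summed levels of the list from 972 to 1470 TPM in single libraries of all groups.

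With further CHIR, 7 of the 11 somite regulators were lower in TLSMGC than in TLSMG and 2 were higher, against 30.5% and 10.4% of all tested genes. The list median was -0.46 against -0.16 over all tested genes. Median-of-ratios scaling gave 6 lower and 2 higher. Foxd2, a forkhead gene of paraxial mesoderm, fell from 49.1 ± 4.59 to 0.404 ± 0.301 TPM (SD, n = 3 each; log2 difference -5.17, adjusted p = 6.06e-10, limma). Tbx18, which marks the anterior half-segment, fell by 2.59 (adjusted p = 3.92e-07, limma), and Meox2 fell by 2.22 to 5.93 ± 1.53 TPM (SD, n = 3; adjusted p = 7.46e-07, limma). Uncx, which marks the posterior half-segment, had 23.6 ± 6.71 TPM in TLSMG and 17.4 ± 1.16 TPM in TLSMGC (SD, n = 3 each; adjusted p = 0.248, limma). With LDN as well, Uncx had its highest group mean, 35.9 ± 3.17 TPM in TLSMGCL (SD, n = 3), unlike Pax1, Pax9 and Nkx3-2. Between TLSMGCL and TLSMGC, 0 of the 11 genes passed, and 1 was higher after median-of-ratios scaling. Tcf15 was one of the 2 that were higher, at 322 ± 13.3 TPM in TLSMGC (SD, n = 3; log2 difference 1.08 from TLSMG, adjusted p = 0.000402, limma), opposite to Pax1.

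Hedgehog signalling, the pathway that induces Pax1 in the embryo, was covered by 15 genes, of which 11 were tested. Against TLSMG, 8 were lower and 0 higher in TLSMGC, where 30.5% of all tested genes were lower and 10.4% higher. The list median was -0.36 against -0.16 over all tested genes. In FPKM 6 were lower and 0 higher, and with median-of-ratios scaling 3 were lower and 1 higher, so the number of calls depended on the scaling. Gli1, a transcription factor that is itself a target of the pathway, was at 8.47 TPM in Gastruloid and 7.55 ± 1.0 TPM in TLSMG and fell to 2.96 ± 0.446 TPM in TLSMGC (SD, n = 3 each; log2 difference -1.11, adjusted p = 3.36e-05, limma), under each scaling tried. The co-receptor genes Gas1 (by 1.45, adjusted p = 1.91e-05) and Boc (by 1.40, adjusted p = 4.01e-06) fell as well, by limma. The ligand Shh was low throughout, with group means of 0.43, 1.31, 1.42, 0.626 and 0.265 TPM from 96h to TLSMGCL. Ihh, another ligand, had 0.26, 1.17, 1.78, 1.19 and 0.42 TPM in the same order of groups, and Dhh was at or under 0.0223 TPM. Between TLSMG and Gastruloid, where Pax1 fell, 3 of 11 hedgehog genes were higher and 0 lower, against 31.5% and 7.87% of all tested genes. With median-of-ratios scaling 1 was higher and 1 lower.

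Of 8 notochord and floor plate genes, 6 were tested, and in TLSMGC against TLSMG 2 were lower and 1 higher, against 30.5% and 10.4% of all tested genes. Noto, which defines notochord, was at 0.362 TPM at 96h and at or under 0.0142 TPM in the 120 h groups. Spon1, made by floor plate, had 8.54 ± 1.26 TPM in Gastruloid and 6.99 ± 0.357 TPM in TLSMG and fell to 0.994 ± 0.237 TPM in TLSMGC (SD, n = 3 each; log2 difference -2.01, adjusted p = 4.48e-08, limma). Nog, a BMP antagonist made by notochord, was higher by 0.95 (adjusted p = 8.06e-05, limma), and Ntn1, a guidance factor of the floor plate, had group means from 41.1 to 61.1 TPM. These means of Ntn1 do not show the spread between libraries. The 8 genes together summed to 30.6 to 89.8 TPM in single 96h libraries and to 53.2 to 142 TPM in single TLSMG libraries.

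**Figure D4:**
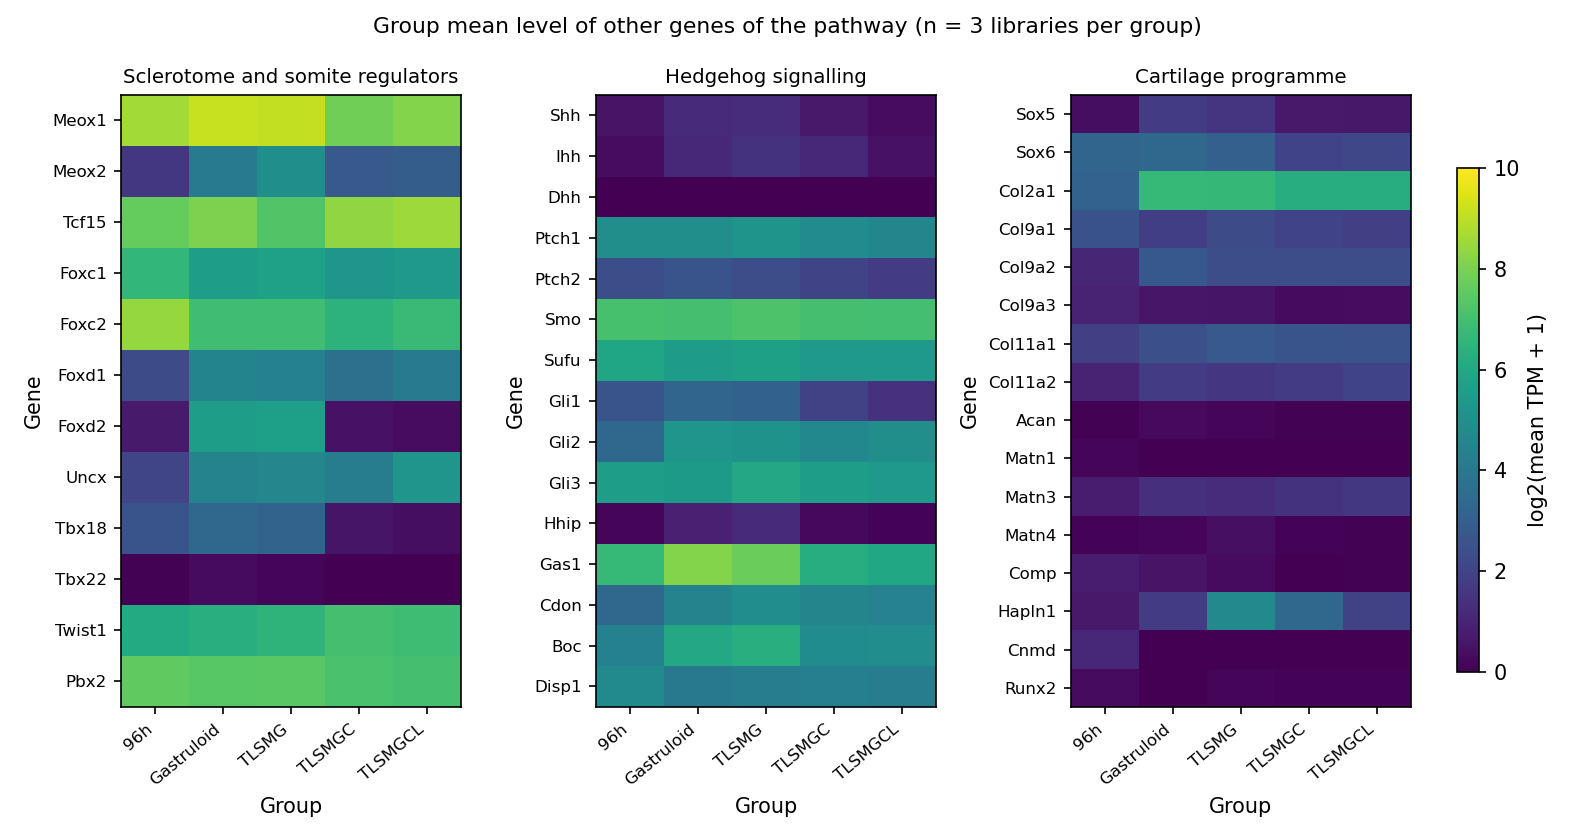
Colour gives log2(mean TPM + 1) of each gene (y axis) in each group (x axis), mean of 3 libraries, for lists of somite regulators, hedgehog signalling and cartilage. Foxd2, Tbx18 and Meox2 are lower in TLSMGC than in TLSMG, Gli1 is lower too, and Col2a1 is high in all 120 h groups.

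The cartilage programme that Sox9 drives was covered by 16 genes, of which 9 were tested, and its main collagen changed in other proportions than Sox9. Col2a1, the main collagen of cartilage, had 7.83 ± 0.861 TPM at 96h, where Sox9 averaged 18.9 ± 3.35 TPM, and 102.0 ± 3.1 TPM in Gastruloid (SD, n = 3 each; log2 difference 3.55, adjusted p = 3.47e-11, limma). It had 99.8 ± 11.5 TPM in TLSMG and 75.1 ± 9.72 TPM in TLSMGC (SD, n = 3 each), lower by 0.41 on the log2 scale (log2 difference -0.41, adjusted p = 0.00867, limma), where Sox9 was 5.82-fold lower. Between TLSMG and TLSMGC, 4 of 9 were lower and 0 higher (median -0.34), against 30.5% lower (median -0.16) of all tested genes, and 3 were lower after median-of-ratios scaling. The Sox partner genes Sox6 (by 1.06, adjusted p = 0.000501) and Sox5 (by 0.89, adjusted p = 0.000699) fell, as did Hapln1, a matrix link protein (by 1.58, adjusted p = 0.00302), all by limma. The TLSMGC libraries of Hapln1 were uneven, at 7.6, 16.6 and 3.37 TPM. Between Gastruloid and TLSMG, Hapln1 rose from 2.4 ± 0.502 to 25.2 ± 4.52 TPM (SD, n = 3 each), by 2.94 (adjusted p = 0.000117, limma), opposite to Pax1. There 2 of 9 cartilage genes were higher and 0 lower, against 31.5% and 7.87% of all tested genes. In the FPKM values Sox5 was under the filter. Acan and Matn1, which mark mature cartilage, were at or under 0.187 TPM and near 0 in group means. Scx, which marks tendon precursors next to sclerotome, moved as Pax9 did: 14.5 ± 1.35 TPM in Gastruloid, 6.03 ± 0.841 TPM in TLSMG and 2.23 ± 0.42 TPM in TLSMGC (SD, n = 3 each).

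Markers of other tissues that use these genes moved with some of the results, and their part in them was not tested. Neural tube markers, 10 genes, summed to 399 to 546 TPM in Gastruloid, 213 to 319 TPM in TLSMG and 63.9 to 78.1 TPM in TLSMGC, the same order as Pax1. From TLSMG to TLSMGC, 7 of 9 tested fell and 0 rose, against 30.5% lower and 10.4% higher of all tested genes. At 96h, where Sox9 was high, the neural tube markers summed to 76.4 to 93.7 TPM. Neural crest markers, 8 genes of which 3 were tested, summed to 11.4 to 14.9 TPM at 96h, 44.2 to 55.1 TPM in Gastruloid, 96.5 to 107 TPM in TLSMG and 21.4 to 31.6 TPM in TLSMGC. Ets1 and Snai2, which other tissues also use, were the most abundant (8.31 and 1.37 TPM at 96h, 79.6 and 16.8 TPM in TLSMG), while Sox10 was at or under 0.30 TPM and Tfap2a at or under 0.344 TPM in group means. The Sox9 means of the first 3 groups were 18.9, 18.8 and 18.3 TPM while this sum differed. Gut and pharyngeal endoderm markers, 11 genes, summed to 119 to 165 TPM at 96h, 105 to 135 TPM in Gastruloid, 109 to 155 TPM in TLSMG and 44.4 to 86.3 TPM in TLSMGC. These sums overlapped among the first 3 groups, but single genes moved apart, and Nkx2-1 was at 0 in all groups. From 96h to Gastruloid and TLSMG, Cdh1 had 37.3, 13.1 and 11.4 TPM, Foxa1 1.14, 4.16 and 5.64 TPM and Hhex 4.21, 2.97 and 19.5 TPM. Between TLSMG and 96h, 2 of 9 tested were higher and 1 lower, against 33.5% and 12.5% of all tested genes. In TLSMGCL the neural tube, neural crest and endoderm sums were 76.2 to 90.8, 22.7 to 29.0 and 49.1 to 67.0 TPM.

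The remaining lists are given by their counts between TLSMGC and TLSMG, where Pax1, Pax9 and Sox9 were lower and where 10.4% of all tested genes were higher and 30.5% lower. Targets of WNT signalling, which CHIR activates, had the opposite direction to the members, with 10 of 11 higher and 0 lower (median 1.5). Presomitic mesoderm and tailbud genes, which precede the somite, had 7 of 12 higher and 1 lower (median 0.80). Targets of BMP had 2 of 8 higher and 5 lower and dermomyotome and muscle genes, of the dorsal somite, 1 of 5 higher and 2 lower. Tendon genes had 1 of 2 in each direction, splanchnic and lateral mesoderm 2 of 5 lower, neural crest 3 of 3 lower, endoderm 6 of 9 lower and endothelium 9 of 9 lower. With LDN as well, 3 of 8 BMP targets were lower in TLSMGCL than in TLSMGC and 0 higher, against 1.18% of all tested genes in either direction. No tested member passed in that comparison.

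For each member the genes with the most similar profile were found by the root mean square difference of centred log2(TPM + 1) values over 15 libraries, among 11752 genes. Those nearest to Pax1 were Foxd2os (0.61), Foxd2 (0.69), Sox21 (0.77), Pax6 (0.85) and Scube2 (0.90). Between Gastruloid and TLSMG, where Pax1 fell, Foxd2os and Foxd2 had log2 differences of -0.11 (adjusted p = 0.466, limma) and 0.08 (adjusted p = 0.781, limma). Nearest to Pax9 were Syt11 (0.22), Jund (0.23), Hap1 (0.28), Scx (0.28) and Syt7 (0.29), and nearest to Nkx3-2 were Syt11 (0.19), Jund (0.22), Fbxo32 (0.25), Six5 (0.27) and Syt7 (0.28). The measure does not compare levels, and the added 1 TPM shrinks the changes of genes as low as Pax9 and Nkx3-2. Jund had 37.3 TPM at 96h and 47.7 TPM in TLSMGC, where Nkx3-2 was listed at 0. Candidates had a highest group mean of at least 5 TPM, which neither Pax9 nor Nkx3-2 reached. Nearest to Sox9 were Jun (0.22), Ptges (0.27), Ephb1 (0.30), Enpp3 (0.30) and Arg1 (0.32). Among the members, Pax9 and Nkx3-2 were 0.29 apart, Sox9 was 1.0 from Pax9 and 0.9 from Nkx3-2, and Pax1 was 1.7 to 1.98 from the others, since the measure also counts the size of the changes.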

How the data were processed

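Bulk RNA-seq of 15 libraries (5 groups of 3) was used. Per the file headers, the deposited tables give 1 row per gene with coverage, FPKM and TPM. The authors' TPM is scaled to one total per library, the deposited FPKM differs from it by 1 factor per library, and the deposited coverage signal served only to compare depth. Per the submitters' processing notes, cutadapt 2.4, STAR 2.7.3a, StringTie 2.0 and mm10 were used, with no roles given. Rows of one gene ID were summed. Of 54446 gene IDs, 54409 matched GENCODE M21 and 53499 had the same coordinates.

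Genes with a mean of at least 1 TPM (14290) were tested on log2(TPM + 1) with limma 3.58.1 in R 4.3.3, all 5 groups in 1 model with a mean trend, in 8 comparisons with two-sided p-values adjusted by Benjamini-Hochberg (threshold 0.05). These differences understate changes of low genes. Ratios and sequences were computed in Python 3.11.15. Without counts, neither intervals nor detection floors were computed. The fit was tested on simulated data. Named genes were the members and up to 3 genes per list and comparison with the largest difference past the threshold. The 5 most alike genes per member with a group mean of at least 5 TPM were added. So were overlapping rows and the nearest row on each side with a mean of at least 1 TPM, the latter given here for Pax1 only. Genes given outside these rules (defining markers, Shh, Ihh, Dhh and Ntn1, and Uncx, Tcf15 and Col2a1 in TLSMGC against TLSMG) were chosen after their values were seen. The members and all 14 lists were chosen with earlier results of these data known. Some genes of the somite list are not reported here. Alternatives were other pseudocounts, filters, scalings, FPKM, a replicate block, fits of 2 groups and leaving out each library.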

Additional observations from a re-analysis of the deposited data

How the results depend on the processing

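Over 544 results of Pax1, Pax9 and Sox9 under alternatives, 516 kept direction and side of the threshold, 20 gained or lost a call and 8 changed sign, none of them past the threshold. The sign changes came with 1 library left out and were of differences near 0: Sox9 in Gastruloid (-0.09 to 0.14) and TLSMG (-0.13 to 0.09) against 96h, Sox9 in TLSMG against Gastruloid (-0.10 to 0.06) and Pax9 in TLSMGCL against TLSMGC (-0.15 to 0.09). The values were -0.03, -0.09 and -0.04 without 96h replicate 2, 96h replicate 3 and Gastruloid replicate 2, 0.09 and 0.07 without 96h replicate 1 and TLSMG replicate 3, 0.06 without TLSMG replicate 3, and 0.09 and 0.07 without TLSMGC replicate 2 and TLSMGCL replicate 2. The calls that changed were of small differences from 96h. Pax1 in TLSMGC passed with a pseudocount of 0.1 TPM (1.45) or 0.5 TPM (0.51), and in TLSMGCL with 0.1 TPM (1.0). Leaving out 1 library gave 0.24 to 0.32 for Pax1 in TLSMGC, 0.30 to 0.54 for Pax9 in TLSMGC and 0.33 to 0.49 for Pax9 in TLSMGCL. Pax9 in TLSMGC lost its call when only those groups were fitted (0.42, adjusted p = 0.0783, limma), and in TLSMGCL with only those groups (0.39, adjusted p = 0.0519, limma) or with no filter (0.39, adjusted p = 0.0522, limma). The cause was not tested. Pax9 failed the filter at 5 TPM, in FPKM, and without Gastruloid replicate 1 or 2, which gave no value. With 1 library left out, the log2 ratio of Pax1 to Pax9 in TLSMG against Gastruloid was -0.90 to -0.36.

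Same-numbered libraries did not deviate together (mean correlations -0.07 to 0.04). The replicate number is not stated to mark a batch. Deviations from means of 3 libraries cannot show whether same-numbered libraries shared one. With the replicate block, Pax9 in TLSMGCL against 96h was 0.39 (adjusted p = 0.0598, limma), and no other call of a tested member changed.

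For Nkx3-2 the difference grew with a smaller pseudocount. Against 96h it was 4.59 and 2.49 (0.1 and 0.5 TPM) in Gastruloid, 3.08 and 1.35 in TLSMG, and 0.70 and 0.19 in TLSMGCL; TLSMGCL against TLSMGC gave 0.70 and 0.19. TLSMG against Gastruloid gave -1.50 with 0.1 TPM, TLSMGC against TLSMG -3.08 and -1.35, and TLSMGCL against TLSMG -2.39 and -1.16. In FPKM it was 1.13 and 0.45 in Gastruloid and TLSMG against 96h, -0.45 in TLSMGC and -0.40 in TLSMGCL against TLSMG.

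The number of genes called between TLSMGCL and TLSMGC was 169, but 42 when only those groups were fitted and 56 to 197 without 1 library, lowest without TLSMGC replicate 2 (56), TLSMGCL replicate 1 (70) or TLSMGCL replicate 3 (78).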
